A study of Homo sapiens with 6 samples.

Results

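The 45 genes described here are interferon-stimulated and innate sensing genes of human K562 cells, taken by name from the 60609 genes of the count files and matched to the gene symbol. They comprise 4 interferon receptor subunits, 7 nucleic acid sensors or adaptors, 4 transcription factors and 30 interferon-induced effector genes. K562 is an established leukaemia line that carries erythroid features. In the cells of both groups the endogenous EP400, the ATPase subunit of the TIP60 (NuA4) acetyltransferase complex, carried a degradation tag (EP400-dTAG) and was degraded with 500 nM dTAGV-1 for 24 h. WT cells expressed exogenous full-length EP400 and Delta-TRRAP cells expressed an exogenous EP400 without the segment that holds TRRAP, a large scaffold subunit, in both cases from the AAVS1 safe harbor locus. Each line was 1 clone derived from the same tagged parent, so that a difference between the clones and the effect of the mutation cannot be told apart. Poly(A) RNA of 3 libraries per group, described by the submitters as biological replicates, was measured by strand-specific RNA-seq.

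Interferons are secreted antiviral proteins. Type I interferons bind the IFNAR1 and IFNAR2 receptor and interferon-gamma binds the IFNGR1 and IFNGR2 receptor, and the JAK kinases bound to these receptors phosphorylate STAT proteins. STAT2 and IRF9 are subunits of the ISGF3 complex, which binds the interferon-stimulated response element (ISRE) in the promoters of target genes. Upstream of interferon, RIG-I (DDX58), MDA5 (IFIH1) and TLR3 detect double-stranded RNA, whereas cGAS and IFI16 detect DNA, and these sensors switch on IRF and NF-kB factors. K562 cells are known to have lost the type I interferon gene cluster on the short arm of chromosome 9.

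Delta-TRRAP cells did not raise or lower these genes as a block. The antiviral genes RSAD2, TRIM22, SAMD9L, MX2 and USP18 and the RNA sensor IFIH1 were higher by between 4.91-fold and 26.7-fold. MX1 and the RNA sensor TLR3 were also higher, but averaged under 5 normalized counts in WT and entered the test only through Delta-TRRAP. By contrast, the genes of the 3 IFITM membrane proteins were lower by 2.92-fold to 8.24-fold. The receptors and transcription factors moved by less than 2-fold, and IFIT1, a classical interferon target, was 2.46-fold lower. Counts were fitted with the edgeR quasi-likelihood test for all genes whose normalized counts averaged 5 or more. A gene is said to have risen or fallen where its Benjamini-Hochberg adjusted p over all 19114 genes tested was at most 0.01, and is called where its fold change was in addition at least 2. Of the 45 genes 40 were tested, 13 (32.5%) were called higher and 5 (12.5%) lower, beside 16.2% called higher and 6.34% called lower among all genes tested. At any fold change 21 (52.5%) rose and 9 (22.5%) fell, beside 29.6% and 28.9% of all genes tested, and 10 did not pass. The median log2 fold change was 0.35 (range -3.04 to 4.74) against 0.006 for all genes tested.

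The share of calls depended on expression level in the whole data set. Where normalized counts averaged 100 or more, 6.79% of all genes tested were called higher and 6.22% lower, against 8 (29.6%) and 3 (11.1%) of the 27 interferon and sensing genes at that level. Among genes under 100, 30.3% of all genes tested were called higher and 6.52% lower, against 5 (38.5%) and 2 (15.4%) of 13. The share called higher stood well above the background among the genes of the set at 100 or more and near it among those under 100. The level was a mean over both groups, so that a rise in Delta-TRRAP could itself bring a gene to 100. RSAD2, MX2, SAMD9L, USP18 and TRIM22, among the 8 called higher, had WT means of 72.4, 52.4, 44.4, 29.5 and 8.68. TLR3, MX1 and IFIT5 had a mean under 5 in WT and entered the test only through Delta-TRRAP, so that their call was bound up with the filter. Summed, the 45 genes made up between 0.079% and 0.0811% of each WT library and between 0.0959% and 0.105% of each Delta-TRRAP library.

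**Figure D1:**
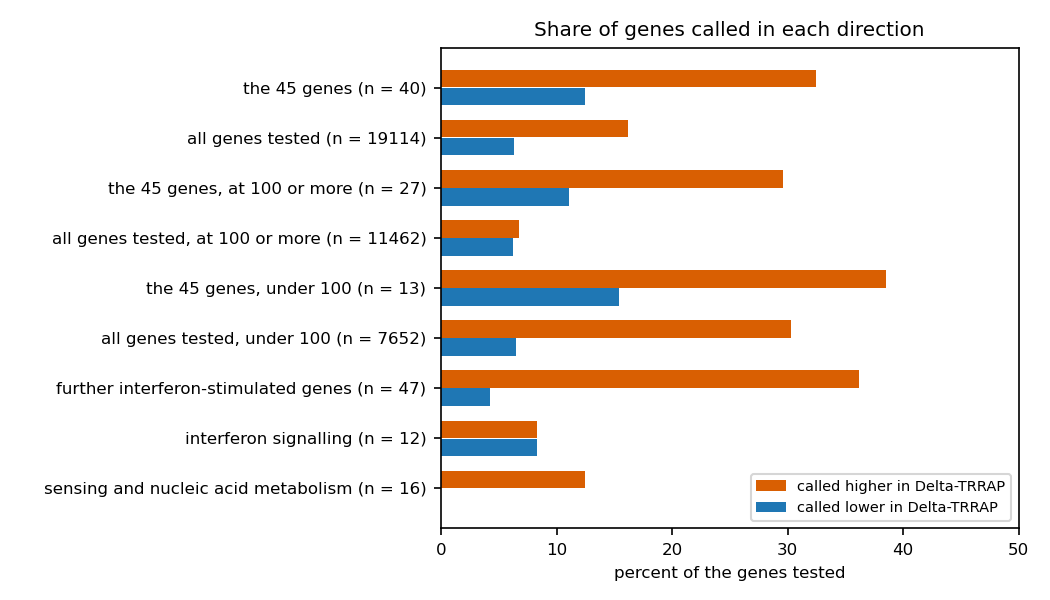
Share of genes called higher and lower (percent of the genes tested) for the interferon and sensing genes, for all genes tested, and for 3 lists of other pathway genes, the first 2 overall and split at a mean normalized count of 100; a call is an adjusted p of at most 0.01 and a fold change of at least 2. At 100 or more, 29.6% of the interferon and sensing genes stood against 6.79% of all genes in the higher direction, and under 100 the shares were 38.5% and 30.3%. The split used the mean over both groups, so some genes called higher reached 100 only through their rise in Delta-TRRAP.

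**Figure D2:**
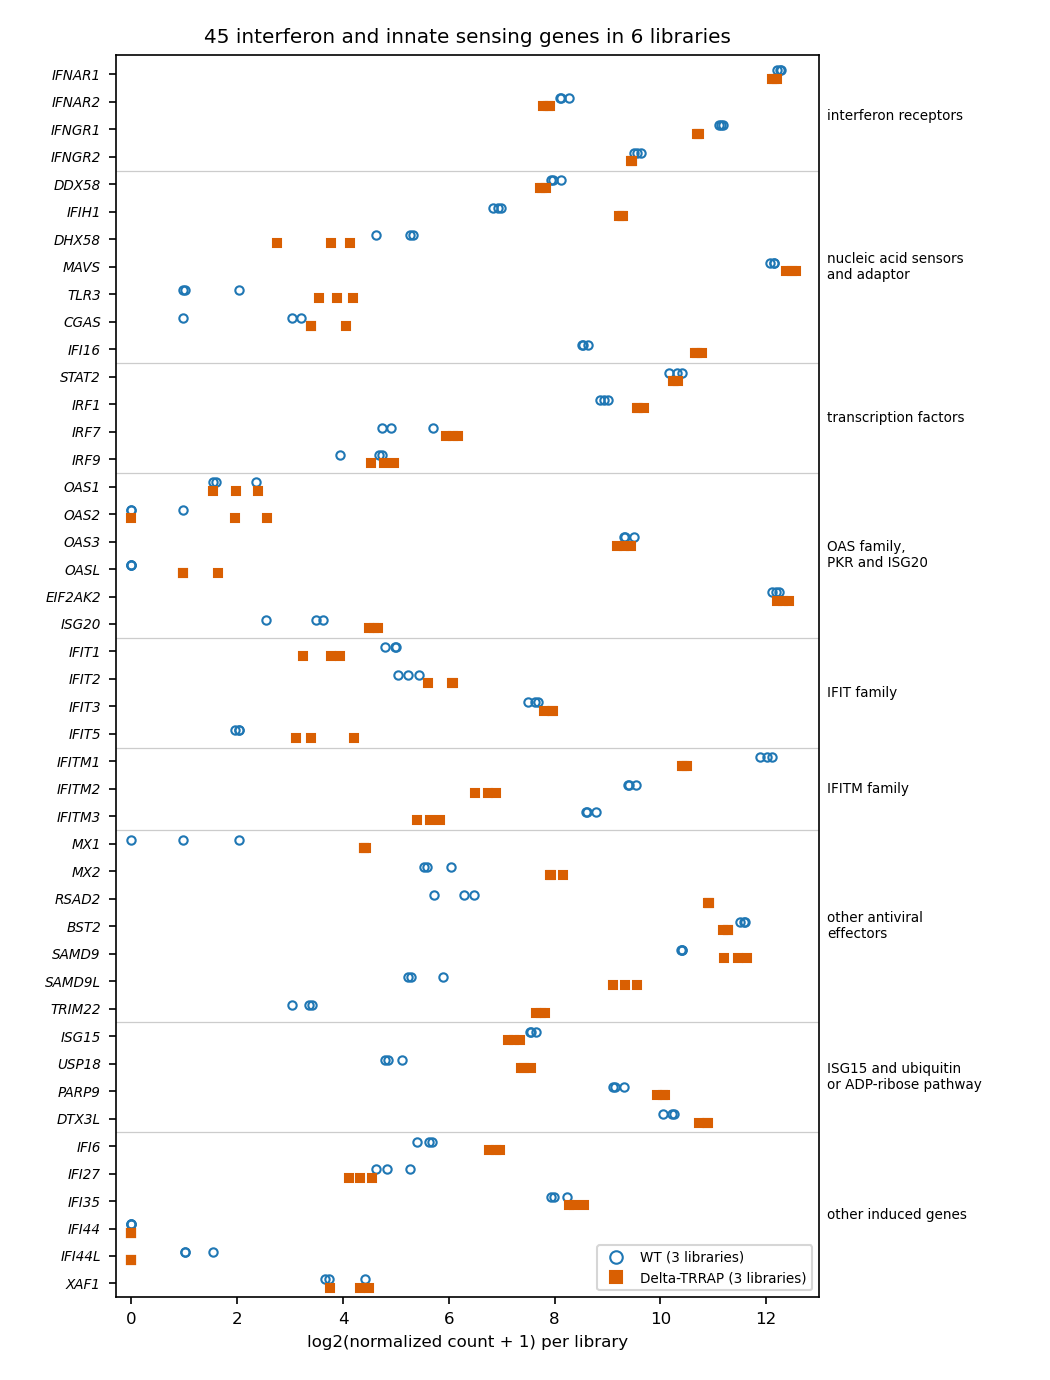
Level of each of the 45 genes in every library, as log2 of the normalized count plus 1, grouped by role; open circles are the 3 WT libraries and filled squares the 3 Delta-TRRAP libraries. RSAD2, TRIM22 and SAMD9L show wide gaps to the right in Delta-TRRAP, the 3 IFITM genes wide gaps to the left, and the receptors small ones.

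Many of these genes also share a promoter element. RefSeq promoters (GRCh38.p14, 250 bases before to 50 bases after the start) were found for 34 of the 45 genes, and the ISRE core, spelled GAAANNGAAA or TTTCNNTTTC on the other strand, stood in 19 of them (55.9%) against 3.57% of all 35116 promoters. It occurred in 7 of the 10 matched genes called higher, in 3 of 3 called lower, in 7 of 18 tested but not called and in 2 of 3 not tested, so genes that moved in opposite directions carried the same element. The gamma-activated site core TTCNNNGAA, an element of genes induced by interferon-gamma, stood in 8 of 34 (23.5%) against 7.66% of all promoters, and in IFITM1, BST2 and IFI27 it overlapped an ISRE core. The stretches around an ISRE are printed here for the called genes with a core wholly before the start, and for ISG15, to show that one element sits before genes that moved either way. They read 5′ to 3′ on the strand of the gene, with whole ISRE cores in capitals, and hold at most 30 bases of any annotated exon. The first group was lower in Delta-TRRAP.
IFITM1 (chr11:313970-314026, plus strand): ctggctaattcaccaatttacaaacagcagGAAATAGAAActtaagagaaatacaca
IFITM3 (chr11:320861-320925, minus strand): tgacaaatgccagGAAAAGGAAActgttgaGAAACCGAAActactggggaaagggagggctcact
IFIT1 (chr10:89392490-89392559, plus strand): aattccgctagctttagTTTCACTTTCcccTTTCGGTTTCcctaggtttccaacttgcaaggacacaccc

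The second group was higher in Delta-TRRAP.
IFIH1 (chr2:162318685-162318735, minus strand): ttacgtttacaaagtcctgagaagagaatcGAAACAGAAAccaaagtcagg
ISG20 (chr15:88638917-88638982, plus strand): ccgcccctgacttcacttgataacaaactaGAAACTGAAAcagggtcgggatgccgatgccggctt
IFIT5 (chr10:89414533-89414567, plus strand): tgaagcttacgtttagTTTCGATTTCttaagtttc
SAMD9 (chr7:93118076-93118145, minus strand): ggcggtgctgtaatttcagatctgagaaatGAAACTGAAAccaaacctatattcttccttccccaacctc
IFI6 (chr1:27672246-27672315, minus strand): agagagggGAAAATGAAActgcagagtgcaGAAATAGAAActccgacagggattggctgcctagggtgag

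The last is ISG15, the textbook ISRE gene, whose level moved by less than 2-fold.
ISG15 (chr1:1013360-1013429, plus strand): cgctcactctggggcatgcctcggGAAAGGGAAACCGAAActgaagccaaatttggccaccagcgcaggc

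IFIT1 and IFIT5 are neighbours in 1 cluster, both with at least 2 cores before the start, and differed in direction. TLR3 and MX1, called higher, held a core that reached across the start site or lay after it, whereas RSAD2, SAMD9L and IFI16, also called higher, had no match in this window.

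The libraries held 35076835 to 42616061 counts in genes. Across genes, log2 normalized counts correlated at 0.993 to 0.994 within groups and 0.941 to 0.943 between groups, a description in which genes are not independent replicates. EP400 itself, of which the counts join endogenous and exogenous transcripts and so do not separate the groups, had 4833, 5105 and 5285 counts in WT and 5642, 7009 and 4119 in Delta-TRRAP. The mitochondrial share was 3.18% to 3.71% in the WT libraries and higher, 5.07% to 6.24%, in those of Delta-TRRAP. The labels name the cell type lymphoblast, but the summed erythroid markers were high (WT 234000 to 236000 normalized counts, Delta-TRRAP 144000 to 147000, led by TFRC), whereas 5 of 10 lymphoid markers were under the minimum of 5 and MS4A1 was at 0 (summed level 821 to 899 in WT libraries, 1300 to 1420 in Delta-TRRAP libraries, 1 called higher, led by RAG1). Fibroblast markers summed to between 35.9 and 58.5 per WT library and between 926 and 971 per Delta-TRRAP library (3 of 10 called higher, led by COL1A2, with LUM and PDGFRA at 0), and macrophage and dendritic markers to 8090 to 8870 and 868 to 937 (1 of 10 called lower, led by LYZ, with CD1C, C1QA and C1QC at 0). In bulk RNA, fewer cells of a type and less RNA per cell cannot be told apart, and the part of these shifts in the changes described here was not tested.

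The 4 receptor subunits were expressed in every library of both groups and none was called. IFNGR1, the ligand-binding chain of the interferon-gamma receptor (chr6:137197483-137219449, minus strand, hg38 with gene models of GENCODE release 44), had normalized counts of 2341, 2217 and 2271 in WT and 1679, 1653 and 1692 in Delta-TRRAP, a log2 fold change of -0.44 ± 0.049 (SE, adjusted p 9.99e-07). The groups did not overlap, and the gene fell by less than the 2-fold limit. IFNAR2, a chain of the type I receptor, had 309, 278 and 274 in WT and 218, 235 and 239 in Delta-TRRAP and a log2 fold change of -0.32 ± 0.089 (SE, adjusted p 0.00517). Its fall did not pass without WT replicate 1 (adjusted p 0.0238) or Delta-TRRAP replicate 1 (adjusted p 0.0304), with DESeq2 (adjusted p 0.0176) or with library size alone as the scale (adjusted p 0.122), and 14.7% of its exon bases overlap the same-strand read-through gene IFNAR2-IL10RB. IFNAR1, its partner chain, stood at 4753, 4979.8 and 4911 in WT and 4416, 4717 and 4546 in Delta-TRRAP (log2 fold change -0.10 ± 0.049 SE, adjusted p 0.0874), and IFNGR2, the second chain of the interferon-gamma receptor, at 728, 796 and 751 in WT and 696, 708 and 703 in Delta-TRRAP (log2 fold change -0.11 ± 0.060 SE, adjusted p 0.113). Neither passed the test, although in both the 3 Delta-TRRAP values lay below the 3 WT values, and with library size alone as the scale both changed sign (log2 fold changes 0.059 and 0.046). IFNAR2, IFNAR1 and IFNGR2 lie close together on chromosome 21, with IL10RB between IFNAR2 and IFNAR1. The order of the 4 subunits by level per kb of exon in WT was IFNGR1 (641 normalized counts per kb), IFNAR1 (311), IFNGR2 (299) and IFNAR2 (20.7).

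Among the sensors, the RNA sensor IFIH1 and the DNA sensor IFI16 rose most at high counts, while DHX58, a relative of IFIH1, fell. IFIH1, which encodes MDA5 (chr2:162267074-162318684, minus strand), had normalized counts of 113, 126 and 121 in WT and 593, 619 and 629 in Delta-TRRAP, a log2 fold change of 2.35 ± 0.083 (SE, adjusted p 2.17e-12). IFI16, a DNA sensor of the PYHIN family (chr1:158999968-159055155), had 368, 396 and 371 in WT and 1658, 1776 and 1607 in Delta-TRRAP, a log2 fold change of 2.15 ± 0.064 (SE, adjusted p 2.86e-13). For both genes the lowest Delta-TRRAP library was several times above the highest WT library. TLR3, the endosomal sensor of double-stranded RNA (chr4:186068911-186088073), was barely detected, with raw counts of 1, 1 and 3 in WT and 11, 18 and 13 in Delta-TRRAP. Its log2 fold change was 2.96 ± 0.51 (SE, adjusted p 0.000102) and 3.64 without WT replicate 3, which held most of the WT counts. DHX58, which encodes LGP2, a helicase that tunes the other RIG-I-like receptors (chr17:42101404-42112714, minus strand), had 23.6, 37.6 and 39.0 in WT and 16.6, 5.73 and 12.7 in Delta-TRRAP, a log2 fold change of -1.52 ± 0.33 (SE, adjusted p 0.000788). The 3 RIG-I-like receptors thus moved differently, since DDX58 (RIG-I) had 279, 245 and 250.5 in WT and 228, 215 and 211 in Delta-TRRAP and did not pass (log2 fold change -0.24 ± 0.091 SE, adjusted p 0.0276). Of the exon bases of DDX58, 43.2% overlap another gene model on the same strand, and counting drops reads that fit both where both were in the annotation. MAVS, the mitochondrial adaptor of RIG-I and MDA5, had 4306, 4559 and 4565 in WT and 5725, 6064 and 5314 in Delta-TRRAP and rose by a log2 fold change of 0.35 ± 0.056 (SE, adjusted p 4.90e-05), and had the highest level per kb of exon of the 7 genes (normalized counts per kb 380.3 in WT and 484 in Delta-TRRAP). CGAS, the cytosolic DNA sensor, had raw counts of 8, 1 and 7 in WT and 16, 10 and 9 in Delta-TRRAP, and its log2 fold change of 1.09 ± 0.50 did not pass (SE, adjusted p 0.0636). The CGAS counts varied widely within WT.

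Of the 4 transcription factors, the 2 subunits of ISGF3 in the list did not pass the test, whereas IRF1 and IRF7 rose by less than 2-fold. STAT2 had normalized counts of 1270.3, 1151 and 1368 in WT and 1229.8, 1289 and 1215 in Delta-TRRAP (log2 fold change -0.02 ± 0.064 SE, adjusted p 0.791) and IRF9 had 24.6, 14.5 and 25.7 in WT and 30.3, 22.0 and 26.4 in Delta-TRRAP (log2 fold change 0.29 ± 0.27 SE, adjusted p 0.355). In both genes the groups overlapped, and the sign of STAT2 depended on the scaling and on WT replicate 3. IRF1, an early responder to interferon-gamma, had 488, 466 and 513 in WT and 763, 751 and 831 in Delta-TRRAP and rose by a log2 fold change of 0.68 ± 0.067 (SE, adjusted p 3.14e-07). IRF7, the factor that amplifies type I interferon production, had 51.2, 28.9 and 25.7 in WT and 71.4, 61.1 and 66.5 in Delta-TRRAP, a log2 fold change of 0.91 ± 0.22 (SE, adjusted p 0.00194). The 3 Delta-TRRAP values of IRF7 were above the WT values, but the rise did not pass without Delta-TRRAP replicate 1 (adjusted p 0.0117), WT replicate 2 (adjusted p 0.0143) or WT replicate 3 (adjusted p 0.0118). Without WT replicate 1 it was called, with a log2 fold change of 1.26.

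The oligoadenylate synthetases, which activate the antiviral nuclease RNase L, were close to silent except for OAS3. OAS1, OAS2 and OASL were too low to be tested, with raw counts of 2, 2 and 4 in WT and 3, 2 and 4 in Delta-TRRAP for OAS1, 0, 1 and 0 in WT and 5, 3 and 0 in Delta-TRRAP for OAS2 and 0, 0 and 0 in WT and 1, 1 and 2 in Delta-TRRAP for OASL. A change in these 3 genes was not detectable at this depth. OAS3 (log2 fold change -0.071 ± 0.077, SE) and EIF2AK2, the kinase PKR (0.14 ± 0.061, SE), were expressed in every library and did not pass the test, with adjusted p of 0.43 and 0.0462, and OAS3 changed sign with library size alone as the scale (log2 fold change 0.087). EIF2AK2 passed on that scale (adjusted p 0.000488) and without Delta-TRRAP replicate 3 (adjusted p 0.00448). ISG20, an antiviral exonuclease (chr15:88635670-88656483), had 11.3, 4.82 and 10.3 in WT and 21.5, 22.9 and 24.3 in Delta-TRRAP, a log2 fold change of 1.38 ± 0.32 (SE, adjusted p 0.00129). None of the WT libraries reached the lowest Delta-TRRAP value.

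The 4 IFIT genes, which encode proteins that bind viral RNA, lie in 1 cluster on chromosome 10. All passed the test, 3 upward and 1 downward, and among all genes tested 29.6% rose and 28.9% fell. IFIT1 (chr10:89392546-89406487) had 30.7, 30.9 and 26.7 in WT and 12.7, 14.3 and 8.45 in Delta-TRRAP, a log2 fold change of -1.30 ± 0.27 (SE, adjusted p 0.000513). IFIT5 (chr10:89414568-89421605), the gene next to it, had raw counts of 3, 3 and 3 in WT and 18, 8 and 9 in Delta-TRRAP, a log2 fold change of 1.90 ± 0.49 (SE, adjusted p 0.00293). The call of IFIT5 was lost without Delta-TRRAP replicate 1 (adjusted p 0.0219), WT replicate 1 (adjusted p 0.0116) or WT replicate 2 (adjusted p 0.0127), and with DESeq2 (adjusted p 0.0136). IFIT2 had 31.8, 36.7 and 42.1 in WT and 66.5, 65.9 and 47.5 in Delta-TRRAP and rose by a log2 fold change of 0.71 ± 0.19 (SE, adjusted p 0.00452). IFIT3 had 179, 197 and 204 in WT and 223, 247 and 251 in Delta-TRRAP and rose by a log2 fold change of 0.31 ± 0.096 (SE, adjusted p 0.00923). In neither did the groups overlap. IFIT2 did not pass without WT replicate 1 or 2 or Delta-TRRAP replicate 1 or 2 (adjusted p 0.0158 to 0.0278) or with DESeq2 (adjusted p 0.0127), and IFIT3 did not pass in 5 of the 6 fits that left out a library, the exception being that without Delta-TRRAP replicate 1 (adjusted p 0.0148 to 0.0545 in the 5). With DESeq2 and limma-voom the adjusted p of IFIT3 was 0.0234 and 0.0114.

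The genes of the IFITM proteins, which block fusion of viral envelopes with cell membranes, were all called lower, beside 6.34% of all genes tested. The most abundant genes of the set included IFITM1. IFITM1 (chr11:310041-315272) had normalized counts of 4134, 4407 and 3795 in WT and 1457, 1396 and 1367 in Delta-TRRAP, a log2 fold change of -1.55 ± 0.060 (SE, adjusted p 6.25e-12). IFITM2 (chr11:303655-309397) had 666, 744 and 682 in WT and 117, 89.8 and 107 in Delta-TRRAP, a log2 fold change of -2.74 ± 0.097 (SE, adjusted p 2.20e-12). IFITM3 (chr11:319676-329475, minus strand) had 390.3, 439 and 384 in WT and 48.9, 56.3 and 41.2 in Delta-TRRAP, a log2 fold change of -3.04 ± 0.12 (SE, adjusted p 8.59e-12). In all 3 genes the highest Delta-TRRAP library was under the lowest WT library by more than 2-fold. The order of the 3 by level per kb of exon was the same in both groups, from IFITM1 (2468 in WT and 844 in Delta-TRRAP) over IFITM2 (434 in WT and 65.1 in Delta-TRRAP) to IFITM3 (142 in WT and 17.2 in Delta-TRRAP). IFITM2 and IFITM3 are close paralogs, and their counts are uncertain because only uniquely aligned reads were kept, and 21.1% of the exon bases of IFITM1 overlap another same-strand gene model.

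Among the other antiviral effectors, 6 of 7 (85.7%) were called higher, beside 16.2% of all genes tested, and 1 fell. Of the 6, MX1 passed the minimum count only through Delta-TRRAP. RSAD2, the enzyme viperin (chr2:6865557-6898239), had the largest log2 fold change of the 45 genes, with normalized counts of 76.8, 52.1 and 88.3 in WT and 1927, 1945 and 1908 in Delta-TRRAP (log2 fold change 4.74 ± 0.10 SE, adjusted p 1.18e-14). Its level per kb of exon was 12.8 in WT and 340.5 in Delta-TRRAP. TRIM22, a ubiquitin ligase that restricts viruses (chr11:5689610-5737089), had 9.22, 9.65 and 7.19 in WT and 212, 225 and 201 in Delta-TRRAP, a log2 fold change of 4.59 ± 0.18 (SE, adjusted p 6.25e-12). SAMD9L (chr7:93130056-93148385, minus strand), which restrains translation and growth in blood cells, had 37.9, 36.7 and 58.5 in WT and 646, 751 and 553 in Delta-TRRAP (log2 fold change 3.88 ± 0.15 SE, adjusted p 8.86e-12). These 3 genes were weak in WT and separated fully between the groups. Such separation was common among the 40 genes of the set that were tested, in both directions. Its share over all genes tested was not counted, so separation is not read as a result about these genes. SAMD9, the paralog beside SAMD9L (chr7:93099513-93118023, minus strand), was already well expressed in WT, with 1362, 1356 and 1346 in WT and 2832, 3173 and 2348 in Delta-TRRAP (log2 fold change 1.04 ± 0.083 SE, adjusted p 2.47e-08). Its call was lost without Delta-TRRAP replicate 2, when the log2 fold change was 0.94. The MX dynamin-like GTPases trap incoming viruses. MX2 (chr21:41361999-41409393) had 64.5, 45.3 and 47.2 in WT and 284, 242 and 245 in Delta-TRRAP, a log2 fold change of 2.30 ± 0.14 (SE, adjusted p 1.09e-09). MX1 (chr21:41420020-41470071) had raw counts of 0, 1 and 3 in WT and 21, 21 and 19 in Delta-TRRAP, a log2 fold change of 3.80 ± 0.52 (SE, adjusted p 1.00e-05). MX1 therefore stayed a rare transcript in both groups, and its log2 fold change ranged from 3.25 without WT replicate 1 to 5.02 without WT replicate 3. BST2 (tetherin), which holds budding virions at the cell surface, fell by less than 2-fold, with 3102, 3058 and 2894 in WT and 2469, 2328 and 2474 in Delta-TRRAP (log2 fold change -0.32 ± 0.051 SE, adjusted p 5.28e-05). BST2 had the highest level per kb of exon of the 45 genes in both groups (2741 in WT and 2202 in Delta-TRRAP). With library size alone as the scale its adjusted p was 0.0116.

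In the ISG15 conjugation and ADP-ribosylation branch, the modifier and its protease moved in opposite directions. USP18, which removes ISG15 from proteins and dampens type I receptor signalling (chr22:18150118-18177397), had 33.8, 28.0 and 26.7 in WT and 187, 163 and 170.0 in Delta-TRRAP, a log2 fold change of 2.55 ± 0.15 (SE, adjusted p 7.21e-10). Its counts are uncertain, since a near-identical gene copy, USP41, can take or void its reads. ISG15, the ubiquitin-like modifier itself, had 201, 185 and 188 in WT and 149.6, 138 and 163 in Delta-TRRAP, a log2 fold change of -0.35 ± 0.10 (SE, adjusted p 0.00714). The fall of ISG15 was near the limit and did not pass in 5 of the 6 fits that left out a library, the exception being that without Delta-TRRAP replicate 3 (adjusted p 0.0112 to 0.0339 in the 5), nor with DESeq2 (adjusted p 0.0260) or with library size alone as the scale (adjusted p 0.105). PARP9 and DTX3L, which work as a complex and whose genes overlap at their starts on opposite strands, rose together. PARP9 had 568, 548 and 635 in WT and 1056, 1082 and 975 in Delta-TRRAP and rose by a log2 fold change of 0.83 ± 0.069 (SE, adjusted p 3.85e-08), and DTX3L had 1059, 1190.2 and 1223 in WT and 1881, 1919 and 1704 in Delta-TRRAP and rose by a log2 fold change of 0.67 ± 0.065 (SE, adjusted p 2.42e-07).

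Of the other induced genes, IFI6, an inhibitor of cell death at mitochondria (chr1:27666064-27672212, minus strand), had 50.2, 48.2 and 41.1 in WT and 124, 108 and 117 in Delta-TRRAP, a log2 fold change of 1.32 ± 0.15 (SE, adjusted p 9.61e-07). Its exons overlap another same-strand gene model over 23.1% of their bases. IFI35, a partner of NMI, had 299, 254 and 244 in WT and 373, 328 and 308 in Delta-TRRAP and rose by a log2 fold change of 0.34 ± 0.099 (SE, adjusted p 0.00645), which did not pass without Delta-TRRAP replicate 1 (adjusted p 0.0501), WT replicate 2 (adjusted p 0.0379) or WT replicate 3 (adjusted p 0.0406). IFI27 and XAF1 did not pass (log2 fold changes -0.63 ± 0.26 and 0.25 ± 0.32, SE, with adjusted p 0.0425 and 0.504). IFI44 had no count in any of the 6 libraries, which allows up to 3 counts in all per group. IFI44L, its neighbour and like it one of the genes induced most widely by type I interferon, had raw counts of 1, 2 and 1 in WT and 0, 0 and 0 in Delta-TRRAP.

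**Figure D3:**
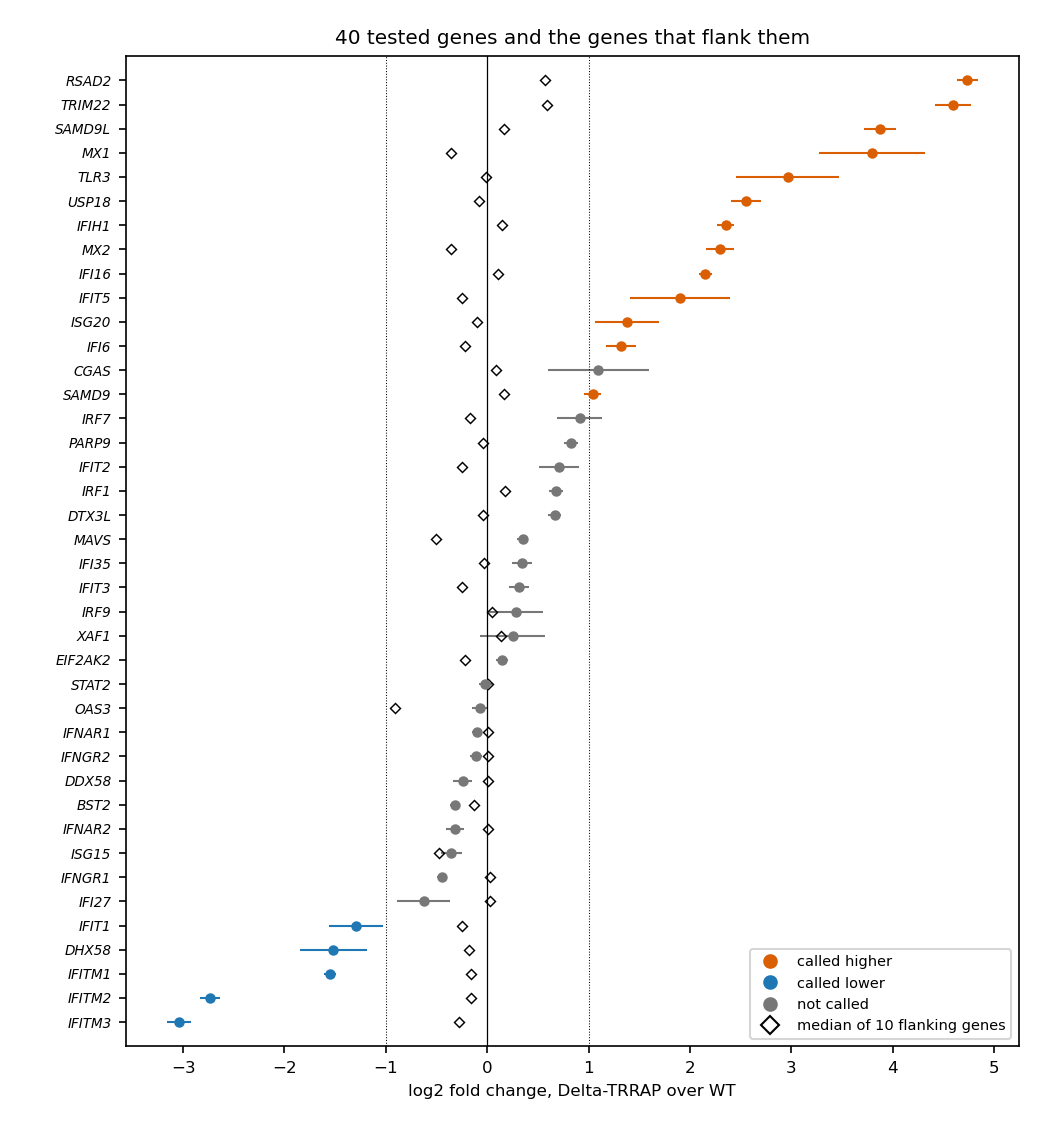
Log2 fold change of Delta-TRRAP over WT for the 40 genes tested, ordered by size (filled circles, coloured by call, with bars for the SE of the edgeR fit), and the median of the 10 flanking genes of each (open diamonds). The dotted lines mark a 2-fold change. The estimates run from -3.04 (IFITM3) to 4.74 (RSAD2), the receptors and transcription factors stay within the dotted lines, and so do the diamonds.

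Several of these genes sit beside each other, so their genomic surroundings were described as well. For each gene the 5 tested genes on either side that averaged 100 or more normalized counts, without the 45 genes themselves, gave a neighbour median. Around the 18 called genes it lay between -0.36 and 0.59, and 17 of the 18 differed from it by at least 1 on the log2 scale. The exception was SAMD9, with a log2 fold change of 1.04 beside a neighbour median of 0.16. Called genes were selected for a log2 fold change of at least 1 in either direction. A distance of 1 from a median of 10 genes was therefore largely fixed in advance, and no conclusion is drawn from it. Genes that were adjacent and both called higher were MX2 and MX1, SAMD9 and SAMD9L, IFI16 and AIM2, and RSAD2 and CMPK2, of which the last 2 pairs lie on opposite strands. In the IFIT cluster the log2 fold changes were, in chromosomal order, 0.71, 0.31, -1.30 and 1.90 for IFIT2, IFIT3, IFIT1 and IFIT5. Neighbours of the OAS cluster on chromosome 12 had a median of -0.91 while OAS3 itself had -0.071. Those of ISG15 had a median of -0.48, close to the -0.35 of ISG15, and those of MAVS a median of -0.50 beside 0.35 for MAVS.

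**Figure D4:**
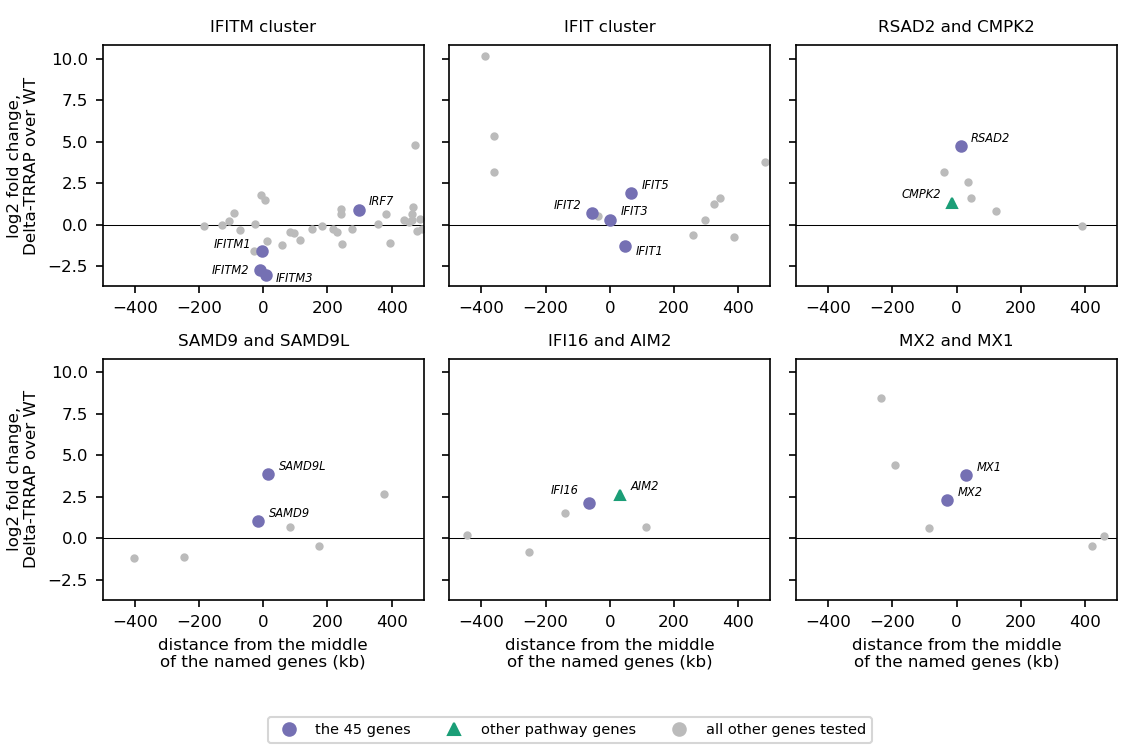
Log2 fold change of Delta-TRRAP over WT of every gene tested within 500 kb of 6 loci, against the distance from the middle of the named genes in kb; large circles are genes of the set, triangles other genes of the pathway and small grey points all other genes tested. The 3 IFITM genes lie at -1.55 to -3.04, and the 4 IFIT genes spread from -1.30 to 1.90.

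The rest of the pathway was followed in 112 further genes, listed by function. Of these 75 were tested, 20 (26.7%) were called higher and 3 (4.0%) lower, beside 16.2% and 6.34% of all genes tested, and the median log2 fold change was 0.14. At 100 or more normalized counts, averaged over both groups, 10 of 58 (17.2%) were called higher and 0 lower, beside 6.79% and 6.22% of all genes at that level. Some of these 10, such as TMEM140 and AIM2 with WT means of 35.9 and 30.2, were under 100 in WT. Under 100 the counts were 10 (58.8%) and 3 (17.6%) of 17, beside 30.3% and 6.52%. NLRC5, EPSTI1, CXCL10, GBP1 and ETV7 had a mean under 5 in WT and entered the test only through Delta-TRRAP, so that 5 of the 20 higher calls were bound up with the filter. Most of the calls came from 47 further interferon-stimulated genes, with 17 (36.2%) higher, 2 (4.26%) lower (GBP4 and GBP5) and a median of 0.50, the last 4 of those 5 genes included. Of 12 tested signalling genes 1 (8.33%) was called higher (SOCS1) and 1 (8.33%) lower (PTPN6), and of 16 tested sensing and nucleic acid genes 2 (12.5%) were called higher (AIM2 and NLRC5) and none lower, shares near those of all genes tested. Interferon ligand transcripts were close to absent, since 19 of 22 ligand genes had no count in any library and none was tested. The IFNA genes, IFNB1, IFNW1 and IFNE lie in the chromosome 9 cluster that K562 cells are known to have lost. Their counts of 0 therefore cannot be read as low expression, and the loss was not tested here. IFNG, the interferon-gamma gene, had raw counts of 0, 0 and 0 in WT and 7, 6 and 6 in Delta-TRRAP, at least 6.28-fold higher in Delta-TRRAP when the WT group is set to 3 counts in all. IFNK and IFNL1 held 3 counts or fewer in all.

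Among the signalling genes the receptor kinases moved little. JAK1 (log2 fold change 0.12 ± 0.064 SE, adjusted p 0.0989) did not pass in the fit of all libraries, and it passed without Delta-TRRAP replicate 3 (adjusted p 0.00846) and with library size alone as the scale (adjusted p 0.00137). TYK2 fell (log2 fold change -0.20 ± 0.051 SE, adjusted p 0.00312) but did not pass without Delta-TRRAP replicate 1 (adjusted p 0.0178) or WT replicate 3 (adjusted p 0.0121), nor with library size alone (adjusted p 0.516). Both changes were well under 2-fold. IRF3, the factor that sensors activate through the kinase TBK1, had 2730.1, 2556 and 2641 in WT and 1531, 1343 and 1617 in Delta-TRRAP and fell by less than 2-fold (log2 fold change -0.82 ± 0.064 SE, adjusted p 1.91e-08). TBK1 fell as well (log2 fold change -0.50 ± 0.051 SE, adjusted p 3.97e-07). STING1 (named TMEM173 in the files), the adaptor of cGAS, had a log2 fold change of -0.14 ± 0.061 (SE, adjusted p 0.0505) and did not pass, with the sign reversed on library size alone (log2 fold change 0.015). SOCS1, the feedback inhibitor of JAK kinases, had 66.6, 59.8 and 59.5 in WT and 175, 166 and 181 in Delta-TRRAP and was called higher (log2 fold change 1.49 ± 0.12 SE, adjusted p 3.36e-08).

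Effector genes outside the 45 that averaged 100 or more over both groups and were called were all higher. DDX60L, a helicase of the RIG-I pathway family, had 209, 224 and 225 in WT and 1659, 1795 and 1591 in Delta-TRRAP (log2 fold change 2.94 ± 0.071 SE, adjusted p 3.00e-14). TMEM140, an interferon-induced membrane protein gene, had 30.7, 31.8 and 45.2 in WT and 362, 404 and 308 in Delta-TRRAP (log2 fold change 3.32 ± 0.15 SE, adjusted p 5.05e-11). The inflammasome DNA sensor AIM2, beside IFI16, had 37.9, 25.1 and 27.7 in WT and 199, 174 and 194 in Delta-TRRAP (log2 fold change 2.64 ± 0.16 SE, adjusted p 8.56e-10). All 3 were separated between the groups. The other 6 named by the same rule were CMPK2 (log2 fold change 1.34), the nucleotide kinase gene paired with RSAD2, GBP2 (1.52), a guanylate-binding protein gene, LGALS3BP (1.51), a secreted glycoprotein gene, CXCL11 (1.31), a chemokine gene, APOBEC3F (1.14), a cytidine deaminase gene, and UBE2L6 (1.10), the conjugating enzyme for ISG15, each with an adjusted p of at most 0.01.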

How the data were processed

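The authors aligned reads to hg38 with STAR, kept uniquely aligned reads and counted them per GENCODE release 32 gene with HTSeq 2.0.2 on the reverse strand, in union mode, which drops reads shared by 2 genes. The deposited counts per gene of 6 libraries were used, grouped by genotype label. A deposited table of normalized counts, with 3 further columns of samples not analysed here, and a table of the authors' own fold changes and p-values were not used. The 45 genes and all lists were chosen with earlier results of these data known.

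Counts were scaled with TMM factors and fitted with the edgeR 4.0.16 quasi-likelihood F test (R 4.3.3) over 19114 of 34998 genes with a count, with group as the only term and a minimum mean normalized count of 5. P-values measure the spread between libraries of 1 clone per group. Scripts were tested on simulated data. Values per library are given, within the 45 genes, for called genes, receptors, sensors, transcription factors and genes at an adjusted p of at most 0.01. Of the other pathway genes, those called at a mean of at least 100, 6 chosen by name and the ligands as a count were to be named. The submitters' notes name DESeq2, and DESeq2 1.42.0 and limma 3.58.1 served as alternatives, with other scaling factors, filters and thresholds, a replicate block and fits leaving out a library. Depth limits the genes under 5 counts, and floors of 3 counts cover counting error only. Positions and overlaps are from GENCODE release 44, which differs from the release counted. Neighbour medians and promoter motifs are descriptions. No sequence was printed for the 11 genes without a promoter entry. 1 of the 6 genes chosen by name is not reported here.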

Additional observations from a re-analysis of the deposited data

How the results depend on the processing

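With a minimum mean normalized count of 50, which tests fewer genes, 29 of the 45 genes were tested, 9 were called higher and 3 lower. IFIT5, ISG20, MX1 and TLR3 were lost from the higher calls and DHX58 and IFIT1 from the lower ones, all under that minimum. Of the other pathway genes, 13 were called higher and 2 lower at that minimum. At a fold change of 1.5, 18 of the 45 genes were called higher and 5 lower, and 27 other pathway genes were called higher and 12 lower. With no TMM factors, only library size, the median over all genes tested shifted by 0.16 on the log2 scale, the median of the 45 genes became 0.50 and the log2 fold changes went for IFNAR1 to 0.059, for IFNGR2 to 0.046, for STAT2 to 0.14, for OAS3 to 0.087 and for STING1 to 0.015, all of them reversed and none passing. STAT2 ran from -0.093 to 0.026 over the fits that left out a library, reversed without WT replicate 3. Leaving out 1 library gave 12 to 13 of the 45 genes called higher, 5 lower in each of the 6 fits, 19 to 21 and 2 to 4 other pathway genes called higher and lower, and a median of 0.34 to 0.48 for the 45 genes. Under DESeq2 12 of the 45 genes were called higher, with IFIT5 lost (adjusted p 0.0136), and IFNAR2, IFIT2, IFIT3 and ISG15 did not pass. Over the alternatives of 56 single genes, the 40 tested of the 45 and 16 named or chosen by name among the other pathway genes, 37 values of 9 genes no longer passed and 4 of 2 genes newly passed, while 780 kept direction and side of the threshold. The remaining other pathway genes were followed only in their counts.

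Equal replicate numbers did not mark related libraries. The correlation of deviations from the group means was -0.035 to -0.011 over the 3 pairs, and 0 of the 6 libraries correlated best with its own number. A replicate block gave 13 of the 45 genes called higher and 5 lower, 20 and 3 other pathway genes, and a median of 0.34. Genes under 5 counts, such as OAS1, OAS2, OASL, IFI44 and IFI44L, are limited by depth.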

Other observations

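Among pathway genes too weak for the test, NOD2, a sensor of bacterial cell wall fragments, had 0, 0 and 0 raw counts in WT and 12, 10 and 7 in Delta-TRRAP, at least 9.52-fold higher when the WT group is set to 3 counts in all. EPSTI1, an interferon-induced gene that was tested and called higher, also had no count in WT, and was at least 57.3-fold higher in Delta-TRRAP on the same floor. Further weakly expressed genes called higher were GBP1 and GBP3, guanylate-binding protein genes, CXCL10, a chemokine gene, TNFSF10, the gene of the death ligand TRAIL, and NLRC5, an activator of antigen presentation genes. EPSTI1, GBP1, CXCL10 and NLRC5 had a WT mean under 5 and passed the minimum only through Delta-TRRAP. The genes were chosen after their values were seen, and all had a mean normalized count under 100, where 30.3% of all genes tested were called higher. GBP4 and GBP5, of the same guanylate-binding family, were called lower, with log2 fold changes of -1.06 and -1.74.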
